A study of Mus musculus with 4 samples.

Results

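Keratins are the intermediate filament proteins of epithelial cells, and 10 keratin genes that separate luminal, basal and squamous epithelium were followed here in single cells of mouse mammary tumors: Krt8, Krt18, Krt19 and Krt7 of luminal and ductal cells, Krt5, Krt14, Krt15 and Krt17 of basal cells, and Krt6a and Krt16 of stressed and squamous cells. They were taken by gene symbol, 10 of the 32285 genes in the count matrices, and all 10 had counts in the epithelial cells of each of the 4 libraries. Another 43 genes with a Krt symbol were measured. Levels are given for barcodes with at least 1000 unique molecular identifiers (UMIs, each standing for 1 captured transcript) and at most 20% mitochondrial UMIs, which left 23572 cells.

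The tumors came from 4-month-old littermates, per the study's methods. The Cre- group was MMTV-Cre-; Frmd8 fl/fl; PyMT in genotype and the Cre+ group was MMTV-Cre+; Frmd8 fl/fl; PyMT, with 2 libraries each and 1 library per tumor sample. Both groups carried the floxed Frmd8 alleles, whose loxP sites surround exons 4 to 6, and the polyoma middle T oncogene that the mammary tumor virus promoter drives. The same promoter drove Cre in mammary epithelium, mainly luminal, so deletion was limited to cells in which it was active. Cells were sorted by flow cytometry before loading, per the methods.

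A keratin filament is built from pairs of 1 acidic type I keratin and 1 basic type II keratin, and neither type forms filaments alone. Krt8 (type II) with Krt18 (type I) is the pair of simple and luminal epithelium, Krt5 with Krt14 that of basal and myoepithelial cells, and Krt6a with Krt16 that of activated, wounded or squamous epithelium. Krt7 and Krt19 belong to ductal and luminal cells, Krt15 to basal keratinocytes, and Krt17 to basal cells, appendages and stressed epithelium. In the mammary gland the presence of Krt8/18 or Krt5/14 is the usual way of telling luminal from basal cells.

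The stretches of 250 bases before the annotated start are shown for the luminal and the basal pair, since these 4 genes carry the main contrast below. They were read from RefSeq on build GRCm38.p6, in which 5 of the 10 keratins matched the promoter table, Krt7 being the fifth. Krt8 lies at chr15:102004343-102004592 on the minus strand and Krt18 at chr15:102027966-102028215 on the plus strand, neighbors on 1 chromosome. Krt5 lies at chr15:101712906-101713155 on the minus strand, and Krt14 on another chromosome at chr11:100206031-100206280, minus strand. Each is written 5′ to 3′ with motif matches in capitals.
Krt8: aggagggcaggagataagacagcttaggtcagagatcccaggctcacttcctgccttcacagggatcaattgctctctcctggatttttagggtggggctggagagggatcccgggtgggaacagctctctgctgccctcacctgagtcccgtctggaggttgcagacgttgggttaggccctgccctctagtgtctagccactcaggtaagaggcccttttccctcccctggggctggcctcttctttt
Krt18: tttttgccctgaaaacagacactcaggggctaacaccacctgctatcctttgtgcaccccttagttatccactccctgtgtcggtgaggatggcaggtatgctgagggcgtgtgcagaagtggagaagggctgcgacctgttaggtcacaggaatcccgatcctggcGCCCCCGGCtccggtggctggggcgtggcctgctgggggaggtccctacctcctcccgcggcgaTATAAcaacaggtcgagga
Krt5: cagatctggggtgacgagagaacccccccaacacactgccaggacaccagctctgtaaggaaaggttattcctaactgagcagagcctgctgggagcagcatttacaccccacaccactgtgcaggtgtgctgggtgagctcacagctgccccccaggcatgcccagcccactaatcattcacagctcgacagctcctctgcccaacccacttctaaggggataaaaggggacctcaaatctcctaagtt
Krt14: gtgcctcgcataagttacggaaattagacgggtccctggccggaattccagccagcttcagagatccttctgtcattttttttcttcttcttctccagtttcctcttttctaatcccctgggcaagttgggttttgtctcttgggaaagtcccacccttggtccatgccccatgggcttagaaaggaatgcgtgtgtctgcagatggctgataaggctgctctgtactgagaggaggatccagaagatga
These stretches were searched on both strands for 4 letter patterns: the TATA box core TATAA, the Sp factor pattern GGGCGG, the AP-2 pattern GCCNNNGGC and the AP-1 pattern TGANTCA. The Krt18 stretch held TATAA 19 bases before the start, a pattern found in 22.7% of 32544 mouse promoter stretches of this length. It also held GCCNNNGGC, found in 13.8% of them, 83 bases before the start. The stretches of Krt8, Krt5 and Krt14 held none of the 4 patterns, of which GGGCGG was found in 33.0% and TGANTCA in 6.73% of all. GC content was 58% for Krt8, 60.4% for Krt18, 56% for Krt5 and 49.6% for Krt14, against a median of 52.4% over all stretches. These matches describe letters only.

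The Cre- libraries, replicates 1 and 3, held 122658098 and 126843597 UMIs, and the Cre+ libraries, replicates 2 and 4, held 112729231 and 157662955 UMIs. Cre+ replicate 4 stood apart: it was deposited with all barcodes and made with Cell Ranger 4, whereas the other libraries were deposited as called cells made with version 6.1.2, so this library and the Cre+ group partly coincide. Any pair of libraries shared 6 to 16 cell barcodes. Cells were clustered without any Krt gene, and clusters were named from marker lists that held no keratin, which gave 8851 epithelial and 9292 immune cells. Frmd8 over epithelial cells was at 24.2 and 24.3 CPM (UMIs of a gene scaled to 1e+06 UMIs of the class) in the Cre- and at 5.50 and 10.0 CPM in the Cre+ libraries. Immune Frmd8 was also lower in both Cre+ libraries, at 20.5 and 16.3 CPM against 29.9 and 26.8 CPM in the Cre- libraries.

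Epithelial cells fell into hormone-sensing (Hsd-like), alveolar progenitor-like (Avp-like), cycling, basal (Bsl-like) and squamous-like clusters and unnamed luminal clusters that are called by their leading genes. No cluster met the rule for luminal progenitors. All clusters not named basal or squamous are called luminal, with 2074 and 1751 cells in the Cre- and 2215 and 2202 cells in the Cre+ libraries. Several classes were unequally filled: Hsd-like cells numbered 425 and 8 in the Cre- and 102 and 0 in the Cre+ libraries. Bsl-like cells numbered 23 and 28 in the Cre- and 15 and 236 in the Cre+ libraries. Those of Cre+ replicate 4 formed a cluster of their own, led by Acta2, Tagln and Dcn, while those of the other libraries lay in a cluster led by Acta2, Tagln and Sparc in which 5 stromal markers were also detected.

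Below, a level is the CPM of a keratin's UMIs summed over the cells of a class in 1 library, and 4 values in a row stand for Cre- replicates 1 and 3 followed by Cre+ replicates 2 and 4. Each 3′ UMI counts 1 transcript end, so levels of different keratins can be set side by side without a length correction. Means over libraries use those with at least 20 cells of the class. Levels of clusters are descriptions, with no test of 1 cluster against another.

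The luminal pair was the most abundant keratin message of the tumors. In luminal cells Krt8 was at 2335, 846, 1230 and 1421 CPM. Krt18, its partner, was at 2539, 1097, 1544 and 2718 CPM. Krt18 was above Krt8 in each library, Cre- replicate 1 was highest for Krt8, and the genotype groups overlapped for both. A UMI of Krt8 was seen in 91.7% to 97.8% of luminal cells and one of Krt18 in 97.0% to 98.8%.

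Within luminal cells the pair varied by class. Krt8 averaged 4156 ± 1391 CPM (SD, n = 2) in Hsd-like cells and 2158 ± 1018 CPM (SD, n = 4) in the clusters led by the hypoxia-responsive genes Adm and Bnip3. It averaged 1515 ± 219 CPM (SD, n = 4) in Avp-like cells and 1180 ± 542 CPM (SD, n = 4) in other unnamed luminal clusters. Cycling cells held 846 ± 188 CPM (SD, n = 4). The clusters led by Cck and Kcne3 had the lowest luminal mean, 565 ± 126 CPM (SD, n = 2). Neighbors in this order overlapped between libraries, whereas Avp-like cells overlapped neither with Hsd-like nor with cycling cells. Bsl-like cells, at 214 ± 39.5 CPM (SD, n = 3), lay below every cycling value, and immune cells, at 46.4 ± 30.4 CPM (SD, n = 4), lay below every Bsl-like value.

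Krt18 followed a similar order, with the mean of the Adm/Bnip3 clusters closer to that of Hsd-like cells than for Krt8. Krt18 averaged 4449 ± 1159 CPM (SD, n = 2) in Hsd-like cells and 4057 ± 1760 CPM (SD, n = 4) in the Adm/Bnip3 clusters, which overlapped. In the Adm/Bnip3 clusters Krt18 was at 6687, 3129, 3024 and 3389 CPM, while Krt8 there was at 3647, 1607, 1961 and 1418 CPM. In Avp-like cells Krt18 averaged 2129 ± 700 CPM (SD, n = 4), in cycling cells 973 ± 619 CPM (SD, n = 4) and in Bsl-like cells 139 ± 87.3 CPM (SD, n = 3). The pair did not keep one order in every class. In cycling cells Krt8 was above Krt18 in replicates 1 to 3, at 866 against 767, 596 against 532 and 870 against 704 CPM, and below it in Cre+ replicate 4, at 1052 against 1891 CPM.

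Krt19, a type I keratin without a fixed partner in ductal epithelium, was concentrated in 1 luminal class. Hsd-like cells held 4902 CPM in Cre- replicate 1, 6655 CPM in the 8 cells of Cre- replicate 3 and 5249 CPM in Cre+ replicate 2. Avp-like cells held 62.5, 29.2, 75.3 and 98.7 CPM, with no overlap between the classes. In Hsd-like cells Krt19 was of the same order as Krt8 and Krt18. Over all luminal cells it was at 1189, 68.2, 494 and 72.3 CPM, high in both libraries with more than 100 Hsd-like cells and low in the others, so the genotype groups overlapped. A luminal sum alone does not tell the number of Hsd-like cells from the RNA per cell. Hsd-like cells held 86539 of the 92989 luminal Krt19 UMIs in Cre- replicate 1 and 22191 of 28134 in Cre+ replicate 2.

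Krt7, a type II keratin of ductal epithelium, was high in several classes. It averaged 772 ± 283 CPM (SD, n = 2) in Hsd-like cells and 647 ± 164 CPM (SD, n = 4) in the Adm/Bnip3 clusters, which overlapped, against 47.0 ± 16.8 CPM (SD, n = 4) in cycling cells. Its highest mean was in the squamous-like cluster led by Asprv1 and Crct1, 1570 ± 837 CPM (SD, n = 2). The cluster held 979 CPM in the 30 cells of Cre- replicate 1, 863 CPM in the 10 cells of Cre- replicate 3 and 2162 CPM in the 218 cells of Cre+ replicate 4. Hsd-like cells of Cre- replicate 1 held 972 CPM, so the higher mean of the cluster rested on Cre+ replicate 4. In luminal cells as a whole Krt7 was at 332, 95.2, 116 and 258 CPM, and the genotype groups overlapped.

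**Figure D1:**
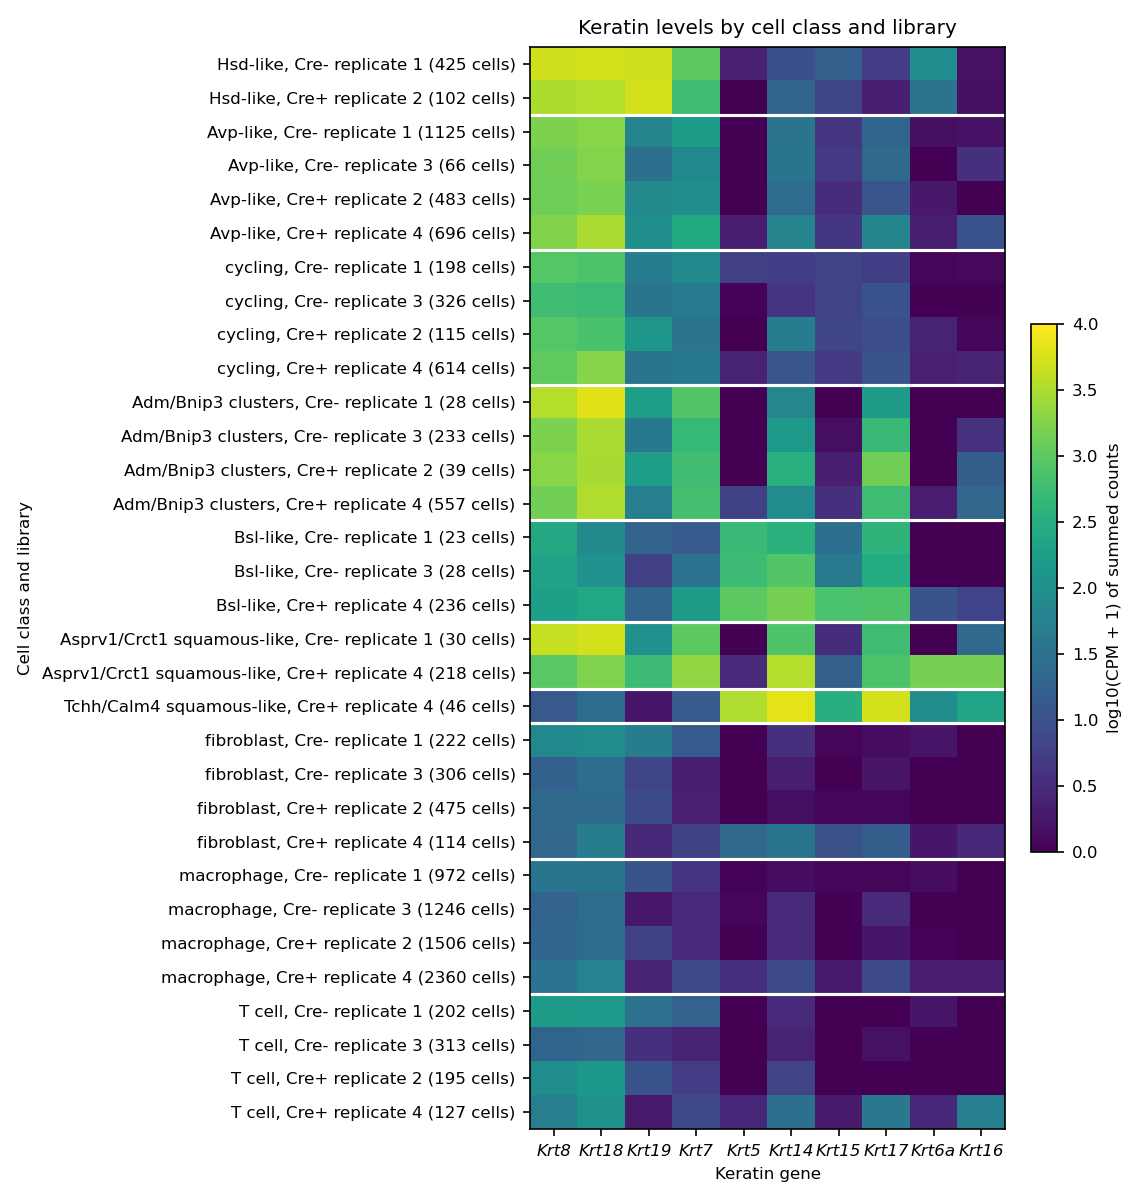
Keratin levels by cell class and library. Rows are cell classes within libraries, columns the 10 keratins, and color is log10(CPM + 1) of the summed counts. Krt8 and Krt18 fill the luminal rows, Krt19 stands out in the Hsd-like rows, Krt5 in the Bsl-like rows and the Tchh/Calm4 row, and Krt6a and Krt16 in the Asprv1/Crct1 row of Cre+ replicate 4.

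The heat map of levels shows the luminal keratins as broad and the other keratins as restricted. Of the basal keratins, Krt5 had the sharpest boundary. Bsl-like cells held 495, 544, 285 and 993 CPM, the third value from 15 cells. Luminal cells held 1.19, 0.0614, 0.544 and 2.0 CPM. All Bsl-like values exceeded all luminal values. The few luminal UMIs came from single cells in 2 libraries, with 93 UMIs in 3 cells of Cre- replicate 1 and 31 UMIs in 1 cell of Cre+ replicate 2, whereas in Cre+ replicate 4 117 UMIs were spread over 85 cells.

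Krt14, the type I partner of Krt5, crossed that boundary. In Bsl-like cells it was at 362, 843, 237 and 1529 CPM. In luminal cells it was at 26.2, 46.1, 75.8 and 48.8 CPM, well above Krt5 in the same cells. A Krt14 UMI was seen in 11.5%, 23.9%, 28.0% and 24.98% of luminal cells, at median depths of 26952.5, 27148, 15108 and 15432.5 UMIs. In immune cells, which should lack it, the share was 0.73%, 1.55%, 1.63% and 9.02%, at median depths of 7660.5, 13012.5, 11278 and 13909 UMIs. The luminal share exceeded the immune share in each library, including Cre+ replicate 4, in which the immune share was highest.

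The luminal Krt14 varied by cluster. The order of its mean level ran from 158 ± 125 CPM (SD, n = 4) in the Adm/Bnip3 clusters, through 125 ± 13.2 CPM (SD, n = 2) in the clusters led by Cck and Kcne3 and 64.9 ± 11.4 CPM (SD, n = 4) in other unnamed luminal clusters, to 38.2 ± 16.2 CPM (SD, n = 4) in Avp-like cells. Cycling cells, at 16.4 ± 20.8 CPM (SD, n = 4), and Hsd-like cells, at 13.8 ± 7.54 CPM (SD, n = 2), overlapped with immune cells, at 6.78 ± 8.41 CPM (SD, n = 4), over all libraries. Within a library Hsd-like cells were above immune cells, at 8.50 against 2.94 CPM in Cre- replicate 1 and 19.2 against 2.57 CPM in Cre+ replicate 2. Without the 5 cells with the most Krt14 in each, these were 2.38 against 0.503 and 2.06 against 1.35 CPM. Of the Cck/Kcne3 cells, 7 and 22 came from the Cre- and 469 and 0 from the Cre+ libraries. In the Adm/Bnip3 clusters Krt14 was at 69.4, 139, 340 and 84.0 CPM.

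Krt17, a keratin of stressed and basal epithelium, was shared between basal cells and the Adm/Bnip3 clusters. Bsl-like cells held 403, 285, 175 and 767 CPM. The Adm/Bnip3 clusters held 158, 522, 1364 and 573 CPM, and these values overlapped. Hsd-like cells, at 2.77 ± 2.25 CPM (SD, n = 2), and cycling cells, at 7.95 ± 2.31 CPM (SD, n = 4), were low. Krt17 was thus high in luminal clusters in which Krt5 was at 0, 0, 0 and 5.24 CPM.

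Krt15, a type I keratin of basal keratinocytes, differed most between libraries among basal cells. Bsl-like cells held 27.8, 45.4, 8.89 and 732 CPM, so that only Cre+ replicate 4 was high. In Cre- replicate 3 the 38 UMIs lay in 2 cells, whereas in Cre+ replicate 4 55.5% of the Bsl-like cells had a UMI. Luminal cells held 6.66, 3.49, 2.70 and 3.35 CPM. The highest luminal class was Hsd-like, at 10.6 ± 6.63 CPM (SD, n = 2).

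The squamous-like clusters held the high keratin levels of Cre+ replicate 4. The Asprv1/Crct1 cluster had 6 of 12 squamous markers detected, 4 of them among its 10 leading genes, and 218 of its cells were in this library against 30, 10 and 3 in the others. Krt6a was at 1527 CPM in Cre+ replicate 4 and at 0, 2.67 and 0 CPM in the others. Krt16, its type I partner, was at 1516 CPM in Cre+ replicate 4 and at 22.0, 34.8 and 18.8 CPM in the others. Both were high in 1 library only, as was the summed level of the squamous markers in these cells, at 12844 CPM with 11 of 12 genes seen in Cre+ replicate 4 against 172 CPM with 5 of 12 in Cre- replicate 1 and 214 CPM with 4 of 12 in Cre- replicate 3. The cells that the cluster drew from the other libraries thus went against its name. Reads of Krt6a can be shared with its near-identical paralog Krt6b, so its counts are uncertain.

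The summed counts of the Asprv1/Crct1 cluster also held the luminal pair, though not every cell did. Krt8 was at 950 CPM and Krt18 at 1655 CPM in the Asprv1/Crct1 cells of Cre+ replicate 4, within the range of luminal classes. Of these 218 cells, 158 had a Krt8 UMI and 194 a Krt18 UMI. Krt14 there was at 3562 CPM, above each of the Bsl-like values, while Krt5 was at 2.12 CPM. A Krt14 UMI was seen in 72.9% of these cells and a Krt5 UMI in 5.50%, next to 3.75% of the immune cells of the same library.

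The other squamous-like cluster, led by Tchh and Calm4, was a separate kind of cell with 46 cells, all in Cre+ replicate 4. It had 5 of 12 squamous markers but also 3 basal and 5 cycling markers, and the stromal gene Dcn was its first leading gene. Its keratins were Krt14 at 6758 CPM, Krt17 at 5368 CPM and Krt5 at 3382 CPM, the highest level of each in any class. Krt8 was at 12.3 CPM and Krt18 at 24.6 CPM, below their levels in immune cells. Krt16 was at 213 CPM with a UMI in 13.04% of the cells, and at 5000 UMIs only 2.27% of 44 cells had 2 or more, so that level rested on few cells. Krt6a was at 90.1 CPM. In Cre+ replicate 4 both squamous-like clusters thus held Krt14, and they were opposite in Krt5 and Krt8.

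Krt6a without Krt16 was found in a luminal class. In Hsd-like cells Krt6a was at 84.5 CPM in Cre- replicate 1, with 1491 UMIs in 183 of 425 cells, at 300 CPM in the 8 cells of Cre- replicate 3 and at 33.4 CPM in Cre+ replicate 2, with 141 UMIs in 31 of 102 cells. Krt16 in the same cells was at 0.51, 0 and 0.473 CPM. In Avp-like cells Krt6a averaged 0.619 ± 0.501 CPM (SD, n = 4), below each Hsd-like value.

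Immune cells were taken as the background of keratin RNA. Whether the keratin UMIs of immune cells were free RNA was not tested. Their Krt8 was at 91.4, 26.2, 29.8 and 38.1 CPM and their Krt18 at 93.9, 39.6, 39.7 and 72.7 CPM. Cre- replicate 1, the library with the most epithelial Krt8, also had the most in immune cells. Of the immune Krt8 UMIs 48.6%, 32.5%, 24% and 26.2% lay in 5 cells of the library. The ratio of epithelial to immune level was 25.7, 32.4, 41.2 and 33.5 for Krt8 and 83.0, 73.3, 79.7 and 68.2 for Krt19. Summed over the 10 keratins it averaged 34.1 ± 6.0 (SD, n = 4), and 69.3 when likely doublets were removed.

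For the basal keratins the ratio varied by library. For Krt14 it was 13.9, 27.3, 30.1 and 28.5. For Krt5 it was 49.5, 75.7, 20.4 and 15.2. Immune cells of Cre+ replicate 4 held 8.39 CPM of Krt5, while the immune Krt5 of the other libraries, at 0.0997, 0.0917 and 0.109 CPM, rested on 2, 3 and 3 UMIs. Krt16 was not seen in immune cells of the Cre- libraries, where 3 counts would amount to 0.150 and 0.0917 CPM.

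Much of the immune Krt5 and Krt14 of Cre+ replicate 4 sat in few cells. Of 446 Krt5 UMIs in 3227 immune cells, 321 lay in 5 cells, and without these the level was 2.36 CPM. Of 1030 Krt14 UMIs, 682 lay in 5 cells, and without these the level was 6.57 CPM. Among the 286 NK cells of this library 1 cell alone held 275 of 323 Krt5 UMIs and 1 held 603 of 656 Krt14 UMIs. Whether such barcodes hold a pair of cells was not tested. A like case was found in endothelial cells of Cre+ replicate 2, in which 387 of 389 Krt17 UMIs were in 1 cell.

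Barcodes with at most 100 UMIs, available for Cre+ replicate 4 only, were taken as a measure of free RNA. Whether their UMIs were all free RNA was not tested. They held Krt18 at 1334, Krt8 at 640, Krt14 at 244, Krt17 at 207 and Krt7 at 183 CPM. Krt5 was at 57.0, Krt19 at 46.2, Krt6a at 45.2, Krt16 at 44.8 and Krt15 at 30.9 CPM. The 10 keratins made up 0.283% of the UMIs there, against 0.552% in epithelial and 0.0167% in immune cells of the same library. The share of the luminal pair was alike in all 3. Krt18 took 47.1% of keratin UMIs in these barcodes, 43.9% in epithelial and 43.6% in immune cells. Krt8 took 22.6%, 23.1% and 22.9%. Some other keratins differed more. Krt5 took 2.01%, 2.31% and 5.04%. Krt19, at 1.63%, 1.93% and 0.94%, and Krt6a, at 1.60%, 2.30% and 0.86%, were lowest in immune cells. The immune level divided by the level in these barcodes ranged from 0.0317 for Krt6a to 0.147 for Krt5. The immune share and ratio of Krt5 rested on few cells, since 321 of its 446 UMIs lay in 5 cells. Without these cells the immune level of Krt5 was 2.36 CPM. Granulocytes, with median depths of 3695 to 3867 UMIs, had the highest immune levels of the luminal pair, with Krt8 at 660, 468, 277 and 503 CPM. These rested on few barcodes: 76.3% to 98.1% of the Krt8 UMIs lay in 5 cells of a library, and without these cells the level was 184, 135, 7.87 and 85.8 CPM.

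**Figure D2:**
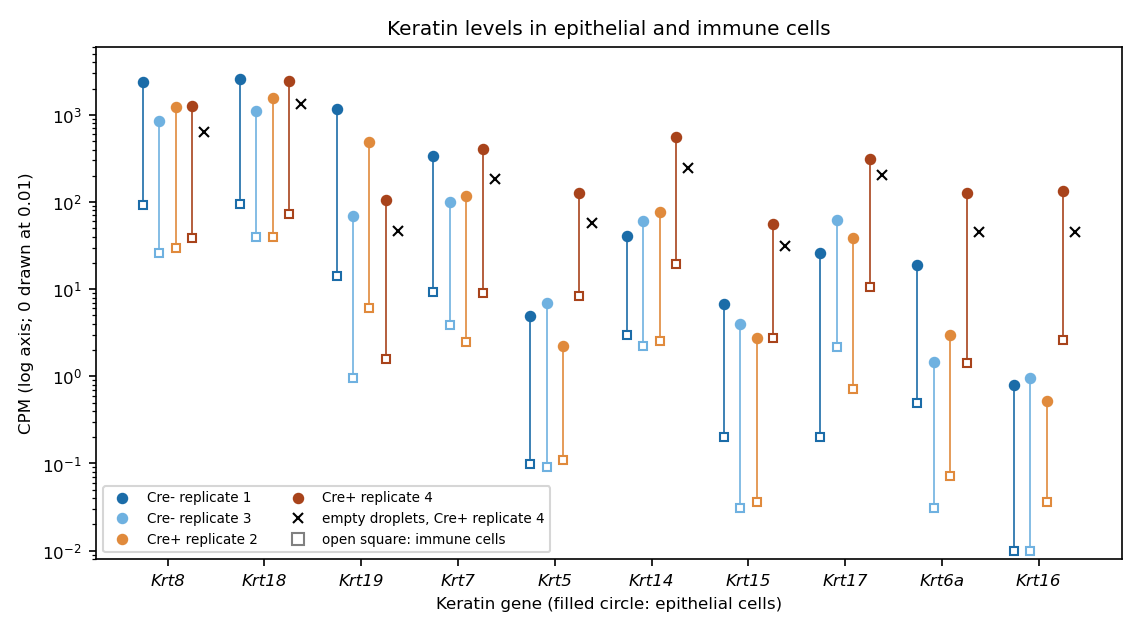
Levels of the 10 keratins in epithelial and immune cells, in CPM on a log axis. Filled points are epithelial cells and open squares immune cells, 1 of each per library. Krt8 lies 25.7 to 41.2 times higher in epithelial cells, and the epithelial points of Krt5, Krt6a and Krt16 are highest in Cre+ replicate 4.

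The plot of epithelial against immune levels places the members by their distance from background. Krt5 in luminal cells of Cre+ replicate 4, at 2.0 CPM and with a UMI in 3.86% of cells, lay at the immune background, where 3.75% of cells had one, and is read as background. Luminal Krt14 lay above its background in each library, at 26.2 against 2.94, 46.1 against 2.23, 75.8 against 2.57 and 48.8 against 19.4 CPM.

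Keratin pairs within single cells were compared after thinning each cell to 1000 UMIs, so that depth was equal and no cell was left out. The share of cells with both genes was set beside the product of the single shares, the share that independent detection would give. Krt8 and Krt18 were both seen in 53.3%, 29.9%, 35.6% and 42.2% of epithelial cells, 1.11 to 1.19 times the product. In immune cells both were seen in 1.07%, 0.470%, 0.372% and 1.12%. This was 3.36 times the product in Cre- replicate 1 and 4.97 times in Cre+ replicate 4, and in the other libraries fewer than 5 cells were expected. An excess over the product is therefore also found in the immune cells that were taken as background.

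Of the 45 pairs, 38 had at least 5 expected cells in some library and 11 had them in all 4. Among these 11, the observed number exceeded the product in all 4 libraries for 6 pairs and fell short in all 4 for 0. At 5000 UMIs, with shallower cells left out, 20 pairs had at least 5 expected cells in all 4 libraries, of which 9 exceeded the product in all 4 and 4 fell short in all 4. The latter were Krt8 with Krt5 and Krt18 with Krt5, Krt15 or Krt17. Krt18 with Krt15 ranged from 0.392 to 0.981 times and Krt18 with Krt17 from 0.796 to 0.986 times. Their highest ratios thus lay close to the product. The luminal pairs with Krt19 and Krt7 were among the stronger. Krt19 and Krt7 were found together 2.43, 2.42, 2.93 and 2.04 times as often as the product. Krt8 with Krt19 reached 1.18 to 1.35 times and Krt8 with Krt7 1.06 to 1.36 times. Within Hsd-like cells Krt19 with Krt7 reached 1.04 times in Cre- replicate 1 and 1.07 times in Cre+ replicate 2. Krt19 was seen there in 88.5% and 93.1% of cells, which leaves little room for an excess.

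The basal pairs could be read mainly in Cre+ replicate 4, where their cells were frequent. At 1000 UMIs Krt5 and Krt14 were found together in 118 epithelial cells against 22.7 expected, 5.21 times the product. Of the cells with Krt5, 71.1% also had Krt14, but of those with Krt14 only 32.0% had Krt5. Krt5 with Krt15 reached 9.93 times, Krt14 with Krt6a 5.11 times and Krt14 with Krt16 4.29 times. Within the Bsl-like cells of this library Krt5 with Krt14 reached only 1.20 times and Krt5 with Krt15 1.37 times. The larger values of these pairs thus arose over all epithelial cells, in which classes with and without them were mixed. Krt6a and Krt16 were together in 34 cells against 1.97 expected, too few expected cells to enter the 38 pairs.

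Luminal keratins and Krt5 were found together less often than the product. In Cre+ replicate 4 Krt18 and Krt5 were both seen in 20 cells against 118 expected, 0.170 times, and Krt8 and Krt5 in 18 cells against 83.0 expected, 0.217 times. In Cre- replicate 1 the same pairs reached 0.273 and 0.306 times, each with 2 cells, and in the other libraries fewer than 5 cells were expected. At 5000 UMIs all 4 libraries had at least 5 expected cells, and the ratio was 0.487, 0.462, 0.444 and 0.336 for Krt18 with Krt5 and 0.680, 0.709, 0.637 and 0.438 for Krt8 with Krt5. For Krt8 and Krt14 the ratio at 1000 UMIs differed between libraries, at 1.08, 1.27, 1.08 and 0.629. Within luminal cells alone it was 1.07 to 1.26, so the low value of Cre+ replicate 4 arose over all epithelial cells, in which its basal and squamous-like cells were included.

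Within single classes of Cre+ replicate 4 the pairs were read at the same 1000 UMIs. In Bsl-like cells 18 pairs had at least 5 expected cells and ranged from 0.403 times (Krt7 with Krt15) to 2.07 times (Krt7 with Krt17). In the Asprv1/Crct1 cluster 28 pairs ranged from 0.576 times (Krt8 with Krt6a) to 2.19 times for Krt6a with Krt16, both seen in 34 cells against 15.6 expected. In the Tchh/Calm4 cluster 6 pairs ranged from 0.962 to 1.06 times.

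**Figure D3:**
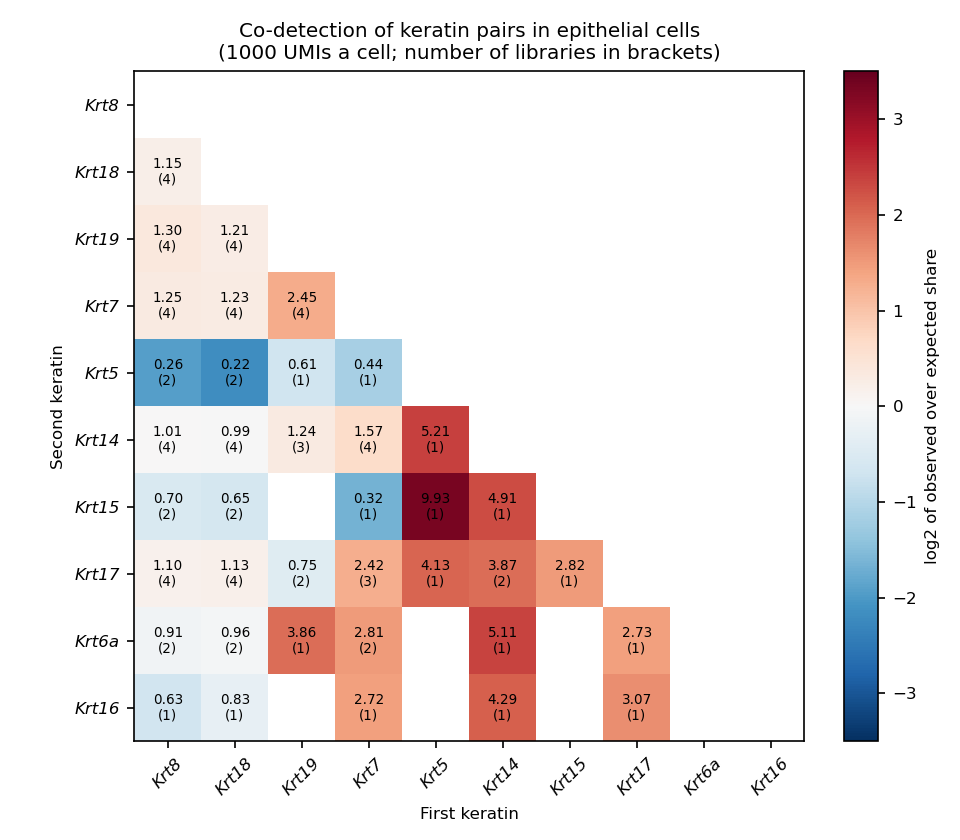
Co-detection of keratin pairs in epithelial cells thinned to 1000 UMIs. Rows and columns are the 10 keratins, and each field gives the observed over the expected share, averaged over the libraries with at least 5 expected cells, whose number stands in brackets; color is its log2, and pairs with no such library are blank. Krt5 with Krt15, at 9.93, has the highest value, and Krt8 and Krt18 with Krt5 have the lowest.

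The map of pairs gives shares over all epithelial cells, and combinations in each class were counted with a stricter call, at least 2 UMIs of a keratin in cells thinned to 5000 UMIs. This left out 142 to 455 luminal cells per library as too shallow. Cells with Krt8 or Krt18 and neither Krt5 nor Krt14 made up 94.6%, 86.1%, 87.3% and 93.9% of the luminal cells. Cells with Krt14 but not Krt5 made up 3.06%, 7.09%, 8.19% and 4.87%, and cells with both 0.05%, 0%, 0% and 0.06%. In immune cells Krt14 without Krt5 was at 0.26%, 0.12%, 0.06% and 0.17%, under every luminal value.

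Bsl-like cells were mixed in their keratins. Krt14 with Krt5 was called in 35%, 36.0%, 41.7% and 65.9% of 20, 25, 12 and 170 cells. Krt5 or Krt14 without Krt8 and Krt18 was called in 40.0%, 20%, 41.7% and 71.2%. Cells with Krt8 or Krt18 besides Krt5 made up 20%, 24.0%, 8.33% and 12.4%. None of Krt8, Krt18, Krt5 and Krt14 was called in 35%, 40%, 41.7% and 9.41% of the Bsl-like cells. Outside Cre+ replicate 4 the Bsl-like cells lay in the cluster in which stromal markers were also detected. Whether the cells without these keratins were basal cells was not tested. In the Tchh/Calm4 cluster Krt14 with Krt5 was called in 86.4% of 44 cells. In the Asprv1/Crct1 cluster Krt14 with Krt5 was called in 0% of the 200 cells of Cre+ replicate 4. Krt14 without Krt5 was called there in 55.5%. Of those 200 cells, 34.5% had Krt8 or Krt18 without Krt5 or Krt14, and 42% had Krt8 or Krt18 with Krt14. Another 13.5% had Krt5 or Krt14 without Krt8 or Krt18, and 10% had none of these genes.

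Krt6a and Krt16 overlapped in part. In the Asprv1/Crct1 cells of Cre+ replicate 4 both were called in 24.0%, Krt6a alone of the pair in 10.5% and Krt16 alone in 8.50%. In Hsd-like cells Krt6a was called without Krt16 in 9.67% of 331 cells of Cre- replicate 1 and in 3.57% of 84 cells of Cre+ replicate 2, and both together in 0%. Nearly all of those cells also had Krt19, at 9.37% and 3.57%. By the same call Krt19 was held by 98.8% and 100% of all Hsd-like cells, so this overlap is not particular to cells with Krt6a. Krt6a was thus called both with and without Krt16 in these squamous-like cells, and only without it in Hsd-like cells. Its level also differed, at 1527 CPM in the former against 84.5 and 33.4 CPM in the latter.

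**Figure D4:**
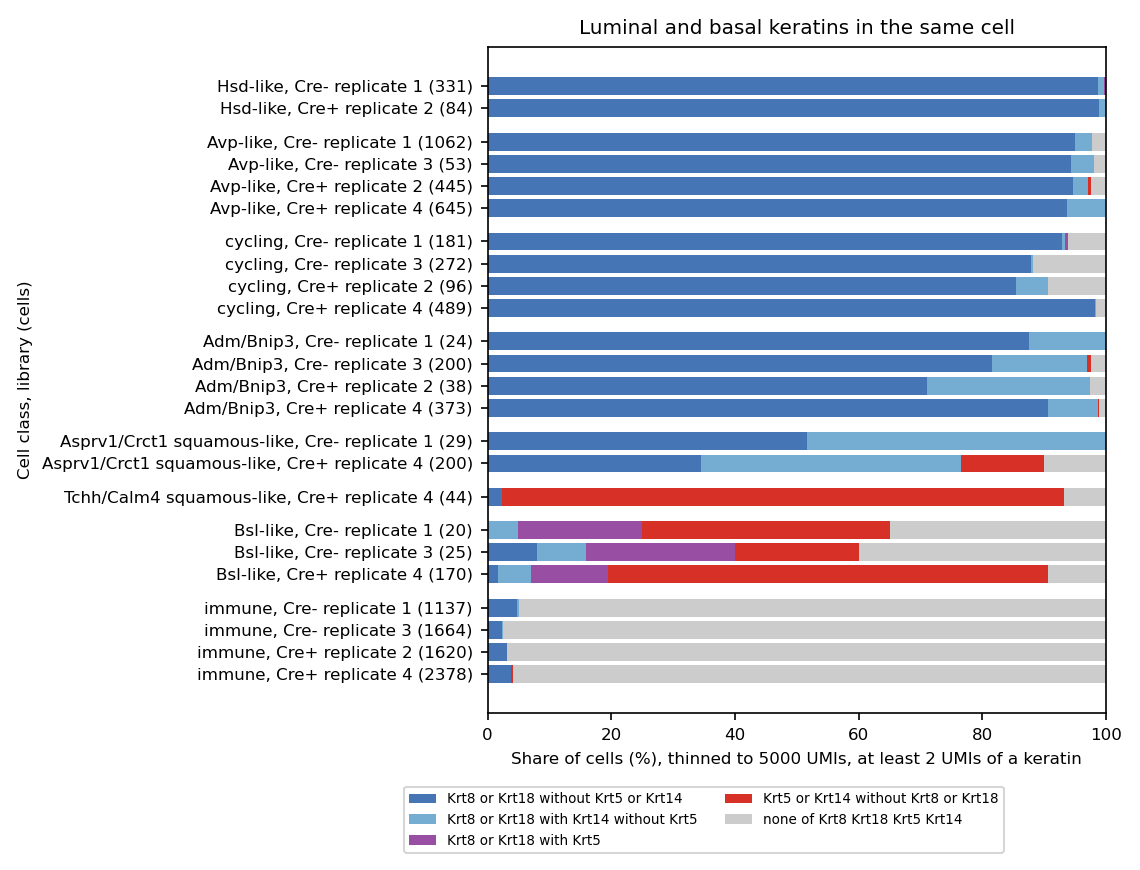
Keratin combinations by class and library. Stacked bars, 1 per class and library with at least 20 cells, divide the cells (%, from 0 to 100) by color into those with the luminal pair alone, with it and Krt14 but not Krt5, with it and Krt5, with Krt5 or Krt14 alone, and with none of the 4 genes, after thinning to 5000 UMIs and calling a keratin at 2 or more UMIs. Krt5 or Krt14 alone fills 71.2% of the Bsl-like cells of Cre+ replicate 4, luminal bars are mostly the luminal pair alone, and immune bars are mostly without any.

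In the chart of combinations the luminal pair with Krt14 but not Krt5 recurs in luminal classes of all 4 libraries. Krt14 without Krt5 was called in the Adm/Bnip3 clusters in 12.5% of 24, 16.0% of 200, 26.3% of 38 and 8.04% of 373 cells, higher than all luminal cells of the same library in each case.

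The genes whose levels ran most alike to each keratin were listed over 16 class-by-library sums, by Pearson's r of log2(CPM + 1) among 9676 genes. The sums covered Hsd-like, Avp-like, cycling, Bsl-like and squamous-like cells. The unnamed luminal clusters, among them the Adm/Bnip3 clusters with their Krt14 and Krt17, were left out. These sums share libraries and depth, so r is a description. Krt8 was nearest to Cystm1 (r = 0.976), followed by Mmp15 and Cmtm8, and Krt18 to Rhpn2 (r = 0.951), Cystm1 and the tight junction gene Cldn7. Krt19 ran with Areg (r = 0.969), the epidermal growth factor family ligand of hormone-sensing cells, and with Nck2 and Slc25a30. Krt7 ran with Dusp10 (r = 0.940), Arhgef16 and Insr.

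Among the basal keratins, Krt5 was nearest to Vsnl1 (r = 0.981), Sostdc1 (r = 0.979) and the hemidesmosomal collagen gene Col17a1 (r = 0.978). Krt15 was nearest to Tspan18 (r = 0.959), Sema3c and Rasl11a. Krt14 and Krt17 shared 1 of their nearest genes, Ajuba, with r = 0.932 and r = 0.930. The others were Dtnbp1 and Reep3 for Krt14, and Frmd6 (r = 0.934) and Gja1, the connexin gene, for Krt17. For the squamous keratins the nearest genes were Cysrt1 (r = 0.934), Sult2b1 and the cornified envelope gene Sprr1a for Krt6a, and the kinase gene Pim1 (r = 0.943), Rictor and Sbsn for Krt16.

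Between the keratins themselves r was taken over the same sums, so again without the unnamed luminal clusters. It was highest for Krt8 with Krt18 (r = 0.951), Krt14 with Krt17 (r = 0.945) and Krt5 with Krt15 (r = 0.900). Krt14 and Krt17 thus ran more alike to each other than to any gene listed for them above. The lowest r was for Krt18 with Krt5 (r = -0.882) and Krt8 with Krt5 (r = -0.861). For Krt14 with its filament partner Krt5 r was lower than with Krt17, at r = 0.675.

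The genotype comparison asks whether keratin levels differed between tumors with and without Cre. Over all epithelial cells Krt14 was at 40.7 and 60.9 CPM in the Cre- and at 77.4 and 552 CPM in the Cre+ libraries, a log2 fold change (Cre+ over Cre-) of 2.74 (SE 1.02). It was the only keratin of the 10 whose genotype groups did not overlap, where 13.1% of 16200 genes were higher and 15.3% lower in both Cre+ libraries. It did not pass the test, with an adjusted p of 1.00 (edgeR's quasi-likelihood test with Benjamini-Hochberg adjustment; unadjusted p = 0.0475). Of the 10 keratins 0 passed, where 0% of all genes did, with 416 genes at an unadjusted p under 0.05 by edgeR and 94 genes called by DESeq2, none of them a keratin of the 10.

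The epithelial sums reflect the squamous-like and basal cells of Cre+ replicate 4. Krt5 was at 4.93 and 6.94 CPM in the Cre- and at 2.21 and 128 CPM in the Cre+ libraries. Krt16 was at 0.799 and 0.965 CPM in the Cre- and at 0.522 and 134 CPM in the Cre+ libraries. In both cases 1 Cre+ library was below the Cre- libraries and the other far above them. Krt17, at 25.8, 61.5, 38.2 and 315 CPM, and Krt6a, at 18.9, 1.45, 2.98 and 127 CPM, were likewise high in Cre+ replicate 4 alone. Without Cre+ replicate 2, so with Cre+ replicate 4 as the lone Cre+ library and the spread taken from the Cre- libraries alone, edgeR called 21 of 17011 genes, among them Krt16 (adjusted p = 0.0177) and Krt5 (adjusted p = 0.0403). Without Cre+ replicate 4 the log2 fold change of Krt5 was -1.47 and that of Krt16 -0.80.

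Luminal cells alone, in which those classes are left out, gave log2 fold changes of smaller size except for Krt18 and Krt19. Krt18 was at 0.32 there against 0.18 over epithelial cells, and Krt19 at -1.16 against -1.05. Krt6a changed from 2.79 to -2.27, and Krt15 and Krt7 also changed sign. Krt14 was at 26.2 and 46.1 CPM in the Cre- and at 75.8 and 48.8 CPM in the Cre+ libraries, with a log2 fold change of 0.84 (SE 0.35), which turned to -0.49 under the study's upper limits on genes and UMIs per cell. It was the only keratin of the 10 higher in both Cre+ libraries, where 11.9% of 15885 genes were. Krt15 was the only one lower in both, where 15.7% of genes were, with a log2 fold change of -0.67 (SE 0.50), which turned to 0.16 under the same upper limits. For each of the pair the exact two-sided permutation test of the CPM gave p = 0.333, the smallest that 2 against 2 libraries allow.

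The other 8 keratins overlapped between genotypes in luminal cells. The log2 fold change was -0.19 (SE 0.55) for Krt8, 0.32 (SE 0.58) for Krt18, -1.16 (SE 1.49) for Krt19 and -0.09 (SE 0.75) for Krt7. It was 1.14 (SE 1.46) for Krt5, 1.32 (SE 0.95) for Krt17, -2.27 (SE 1.27) for Krt6a and 2.94 (SE 1.42) for Krt16. By edgeR 0 of the 10 and 0% of 15885 genes passed, with 358 genes and 0 of the 10 at an unadjusted p under 0.05, and DESeq2 called 49 genes, none of them a keratin of the 10. Intervals of this width leave differences of several fold undetectable.

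**Figure D5:**
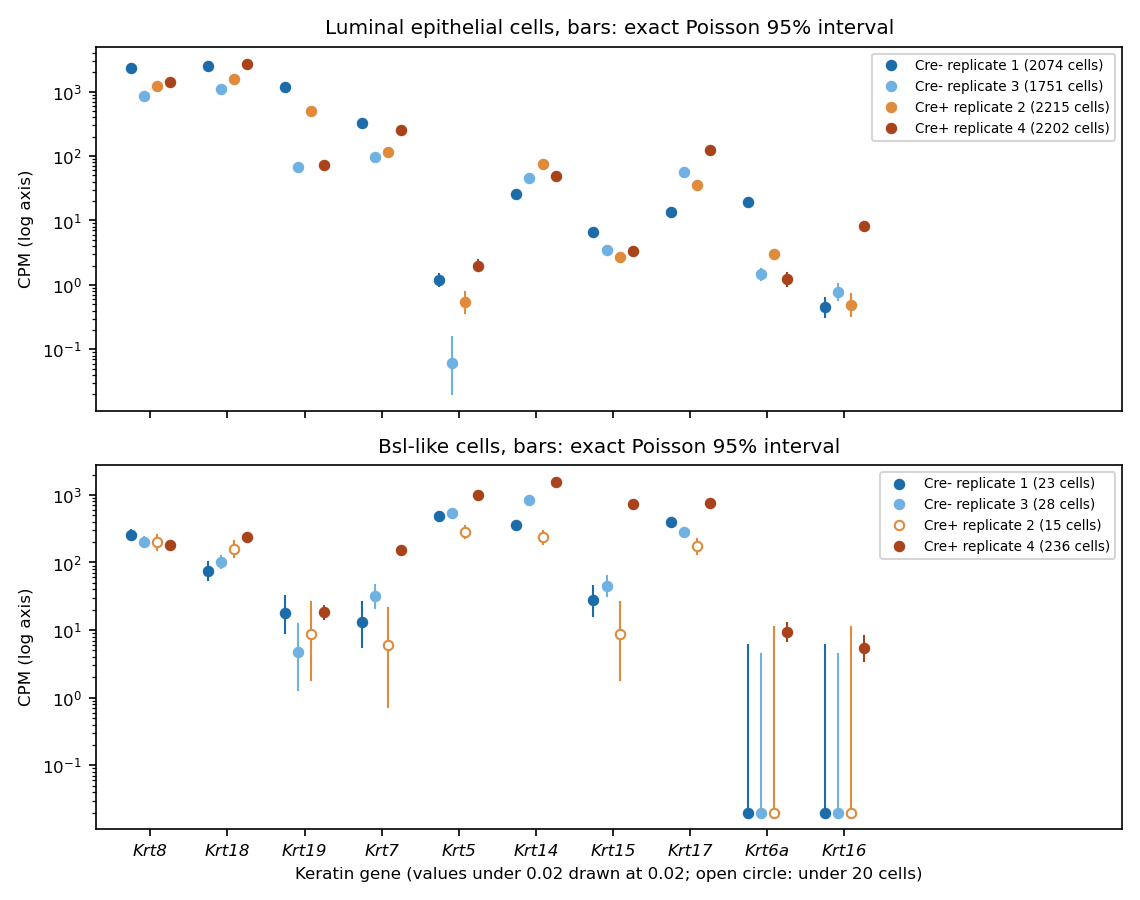
Keratin levels by genotype in luminal and Bsl-like cells. Each point is the CPM of 1 library on a log axis, bars are exact Poisson 95% intervals of the summed counts (counting error only), and open circles mark the library with 15 Bsl-like cells. In luminal cells both Cre+ points lie above both Cre- points for Krt14 alone; in Bsl-like cells Cre+ replicate 4 is highest for Krt5, Krt14, Krt15 and Krt17.

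The plot by genotype shows how far the Bsl-like comparison rests on 1 library. With the 2 Cre- libraries set against Cre+ replicate 4, the only Cre+ library with at least 20 Bsl-like cells, 18.1% of 8827 genes passed edgeR's test, and 6 of the 8 keratins tested were called, all higher in that library. The spread came from the Cre- libraries alone, so these calls set 1 library against 2 and do not speak to genotype. Krt15 differed by 4.36 on the log2 scale (SE 0.30), Krt7 by 2.73, Krt18 by 1.47, Krt14 by 1.40, Krt17 by 1.23 and Krt5 by 1.00. The adjusted p of Krt5, by edgeR, was 0.00189. Krt8 (log2 fold change -0.26, adjusted p = 0.633 by edgeR) and Krt19 (0.86, adjusted p = 0.355 by edgeR) did not pass. All genes that are higher or lower in this library count as not overlapping here, 34.6% and 40.9%.

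These calls were lost when the 15 Bsl-like cells of Cre+ replicate 2 entered the fit: 0 keratins and 0 of 7584 genes passed by edgeR, with 563 genes at an unadjusted p under 0.05. The 15 cells held Krt5 at 285, Krt14 at 237 and Krt17 at 175 CPM, below each of the Cre- values. DESeq2 on the first set of libraries called 428 genes and 3 of the keratins, Krt5, Krt14 and Krt18 being lost. The cells compared also came from different clusters. The 12 stromal markers summed to 1337, 745, 2556 and 1212 CPM in Bsl-like cells and the basal markers to 15350, 34251, 20917 and 7392 CPM, with Cre+ replicate 4 lowest in the latter. Vim, the mesenchymal filament gene, was at 2394 CPM on average in the Cre- and at 137 CPM in the Cre+ library. The part of these in the keratin differences was not tested, and library, cluster and genotype cannot be told apart.

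Genes that work with keratins were listed besides. Of other keratins 7 were tested over epithelial and 7 over luminal cells, and 0 passed in either. Of desmosomal genes, which anchor keratins at cell contacts, 10 and 10 were tested, of hemidesmosomal genes, which anchor them to the basement membrane, 7 and 7, and of other filament genes and regulators 4 and 4, with 0 passing. The median log2 fold change in luminal cells was -0.32 for other keratins, 0.08 for desmosomal and -0.32 for hemidesmosomal genes and -0.52 for the remaining list, beside 0.02 over all genes. Over epithelial cells that of other keratins was 1.10. The larger log2 fold changes in luminal cells were those of the desmosomal cadherin gene Dsg3 (2.24) and of Krt42 (1.97), and on the other side Krt4 (-1.70) and Vim (-1.10). In Bsl-like cells, with Cre+ replicate 4 as the only Cre+ library, the log2 fold change was 4.03 for Krt79 and 2.14 for Krt23. Among desmosomal genes it was 2.40 for the periplakin gene Ppl and -1.01 for the desmoplakin gene Dsp. For the hemidesmosomal genes Dst and Col17a1 it was -1.48 and -1.08, and for the filament genes Vim and Nes -4.05 and -3.30. The list medians were 2.14, -0.45, -0.66 and -1.79 in the same order, beside -0.01 over all genes. The same limit of 1 Cre+ library holds for each.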

How the data were processed

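Tumor cells were measured in 4 libraries with the 10x Genomics 3′ v3 kit. The labels do not say that each library is a separate mouse. The files the authors deposited hold UMI counts of each gene in each barcode, not normalized, made by Cell Ranger 6.1.2 (replicates 1 to 3) or Cell Ranger 4 (Cre+ replicate 4), per the file headers. The aligned build in the submitters' processing notes, hg38, does not go with the mouse gene symbols and was not used. No cell annotation was used, so cell classes were rebuilt.

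Cells with at least 1000 UMIs and at most 20% mitochondrial UMIs were kept. Counts were log-normalized to 10000, 53 Krt genes were left out, and 2000 variable genes gave 30 principal components for Leiden clustering with 20 neighbors and resolution 1.0 (scanpy 1.11.5, leidenalg 0.10.2), without integration over libraries. Clusters were named when at least 3 markers of a list were detected (2 times the median of other clusters, in 10% of cells). This rule was settled after clusters had been seen, and mixed or shallow clusters stayed unnamed. Doublets were kept.

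Counts summed per library were tested with edgeR 4.0.16 (TMM, filterByExpr, quasi-likelihood test, adjusted p of 0.05 over all genes), with DESeq2 1.42.0 as an alternative. A library entered with at least 20 cells of a class. Other alternatives were another normalization, no count filter, other limits on depth, genes and mitochondrial share, a marker gate per cell in place of clusters, and removal of simulated-doublet-like cells. Scripts were tested on simulated data. Intervals are exact 95% ones and cover counting error only, as do limits of 3 counts. The p-values measure the spread between these libraries, which may be technical. The 10 keratins were named in every result. Beside each stand the 3 genes with the highest r outside the 10 keratins, among genes of at least 10 CPM in 3 sums. Up to 6 genes with the largest fold changes of the listed keratin cytoskeleton genes were also named. The keratins, gene lists and tests were chosen with earlier results of these data known. The cluster-specific clauses on Krt15, Krt6a and single cells were chosen after the values were seen.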

Additional observations from a re-analysis of the deposited data

How the results depend on the processing

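No paired analysis was possible because the groups share no replicate number. Leaving out 1 library at a time gave 0 to 2 of the 10 keratins called over epithelial cells and changed no call in luminal cells; no other alternative tried changed a call over these cells. The directions depended on single libraries. Leaving out 1 library at a time, the log2 fold change over epithelial cells ranged from -0.86 to 0.61 for Krt8, -0.31 to 0.92 for Krt18, -2.42 to 2.09 for Krt19, -0.95 to 1.47 for Krt7, -1.47 to 4.55 for Krt5, 0.56 to 3.56 for Krt14, -1.02 to 3.51 for Krt15, -0.23 to 2.98 for Krt17, -1.81 to 5.6 for Krt6a and -0.80 to 7.37 for Krt16, with the negative values of the basal and squamous keratins all without Cre+ replicate 4. In luminal cells it ranged from -0.74 to 0.71 for Krt8, -0.27 to 1.04 for Krt18, -2.96 to 2.03 for Krt19, -0.92 to 1.07 for Krt7, -0.25 to 4.44 for Krt5, 0.47 to 1.29 for Krt14, -1.06 to -0.13 for Krt15, -0.034 to 2.68 for Krt17, -3.17 to 0.55 for Krt6a and -0.37 to 3.87 for Krt16. A gate per cell gave -0.25 for Krt15 over epithelial cells. The study's upper limits on cells reversed the luminal Krt14 (-0.49), Krt15 (0.16) and Krt7 (0.63); the cause was not tested.

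In Bsl-like cells 6 keratins were called, 3 by DESeq2 and 0 with the library of under 20 cells (chosen after seeing the data, as was adding the shallow clusters), and of all genes 1598, 428 and 0. Doublet removal left 4 keratins and 680 genes. Leave-one-out was not run there, nor were the upper limits and a mitochondrial limit of 10%, since too few cells or libraries remained.

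Krt8 with Krt14 was seen in 2.44%, 3.58%, 3.45% and 4.29% of epithelial cells, a Cre+ minus Cre- difference of 0.860 points (exact permutation p = 0.667). It was -0.739 under the upper limits, 0.293 to 1.43 without 1 library each, 5.58 at 5000 UMIs and 9.63 without thinning. In immune cells the share was 0%, 0%, 0.139% and 0.217%, a count of 0 allowing 0.168% and 0.141%. The epithelial to immune ratio of 34.1 was 48.6 under the upper limits, 69.3 with doublets removed, 62.5 with the gate and 31.2 to 35.6 without 1 library each.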

Other observations

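Clusters with epithelial markers that were too shallow to be named held 316, 612, 319 and 747 cells and entered no comparison. Krt8 there was at 767, 693, 814 and 1046 CPM and Krt18 at 1024, 1013, 1192 and 2688 CPM. Krt18 lay within the range of the luminal classes of the same libraries. Krt8 was below its level in cycling cells of the same library, except in Cre- replicate 3. Krt17 in these cells ranged from 12.5 to 345 CPM.

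In T cells of Cre+ replicate 4 Krt16 was at 53.1 CPM, of which 52 of 55 UMIs lay in 1 cell.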
